A study of Mus musculus with 16 samples.

Results

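The 48 h doxycycline comparison in the transgene lines concerned mouse embryonic stem cells that carried a doxycycline-inducible transgene for Firre, a long non-coding RNA transcribed from the X chromosome. Its members were chosen by their labels as all libraries of the lines titled mESC_Firre_OE_firre_induced and mESC_Firre_Rescue_firre_induced, which were 8 of the 16 libraries of the series. The first line has the genotype Firre WT / Firre inducible transgene and is called the WT transgene line. The second carries the transgene in Firre KO cells and is called the KO transgene line. Each line gave 1 H3K27me3 library and 1 input library at 0 h and at 48 h of doxycycline, so that 2 libraries at 48 h were compared with 2 at 0 h, matched by line, over 102957 consensus peaks. The other 8 libraries came from control lines labelled WT and Firre KO, without the transgene in their genotype, at the same times. Cells of all groups were kept on gelatin in serum medium with LIF, PD0325901 and CHIR99021, and all carry doxycycline as their treatment label. The promoter that drives the transgene, its integration sites and copy number, and whether a line is 1 clone are not given in the sources used here.

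H3K27me3 is trimethylation of lysine 27 on histone H3. Polycomb repressive complex 2 writes it through its catalytic subunits Ezh1 and Ezh2, and in embryonic stem cells it covers the CpG-rich starts of silent developmental genes, broadest over the Hox clusters. Firre escapes X inactivation and is known as a repeat-rich nuclear RNA whose locus takes part in the folding of the X chromosome. The comparison asked which regions gained or lost the mark after 48 h of doxycycline in transgene lines labelled Firre WT and Firre KO. These libraries hold no measure of Firre RNA.

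Counts over the consensus peaks were 13470532 and 13123205 at 0 h and 48 h in the WT transgene line and 12756209 and 14787938 in the KO transgene line. The 4 matched inputs held 5870865 to 6244333 counts. Between the times, H3K27me3 libraries of a line differed little beyond sampling noise, with a chi-square per degree of freedom of 1.07 in the WT transgene and 1.12 in the KO transgene line, and inputs at 1.00 and 1.01. No condition was replicated. The p-values below therefore measure only a spread that is pooled over peaks in these libraries and may be technical, and with 1 residual degree of freedom and an infinite prior they mostly follow read depth. Of 20 pluripotency genes, 3 had a peak within 2000 bp of the gene, against 39 of 39 Hox genes.

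The Firre locus was examined first, since it bears on the labels. The single peak there (mm10, chrX:50569315-50570264), inside the Firre gene, had 263 H3K27me3 counts at 0 h and 57 at 48 h in the WT transgene line, and 172 and 47 in the KO transgene line. Input over the same peak was 89 and 104 counts in the WT transgene line, and 66 and 70 in the KO transgene line. H3K27me3 was thus lower at 48 h in both lines while input was not. The 48 h over 0 h ratio of scaled counts was 0.221 (95% exact interval 0.163 to 0.296) in the WT transgene and 0.235 (0.166 to 0.326) in the KO transgene line. This was the largest fall of any peak past the threshold, at -2.14 ± 0.14 (log2, SE; edgeR's quasi-likelihood test, adjusted p = 1.4e-45). Input per width here stood 10.2 to 15.6 times the mean of the X chromosome peaks in the transgene lines. The WT control line stood at 0.453 and 0.946, while the line labelled KO control stood at 10.8 and 11.2, which goes against its label. In the WT control line this peak held only 3 and 6 input counts and 1 and 0 H3K27me3 counts at 0 h and 48 h. Most counts in the transgene lines thus go with extra Firre sequence, and the fall need not be one at the endogenous gene. Single counts cannot be assigned to the endogenous gene or the transgene.

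Over all peaks, H3K27me3 changed at few places, and nearly all of those changes were losses. Of 102922 peaks tested, 61 were lower at 48 h (0.0593%) and 2 were higher (0.00194%) by edgeR's quasi-likelihood test after Benjamini-Hochberg adjustment at 0.05. All 61 were lower in both lines, and at 58 of them the 95% interval of the ratio lay below 1 in each line separately. The same 4 libraries chose these peaks, so agreement of the lines was largely built in. Without that choice, the lines shared a sign at 62.3% of peaks with a mean of 1000 or more counts. The share was 50.6% of peaks with 20 to 50 counts. Losses ran from -0.086 at a HoxC domain to -2.14 at Firre. At an unadjusted p under 0.05 stood 6339 peaks, of which 3410 were lower. DESeq2 called 2 peaks and a fit without the line 5, while an 8-library model called 23 lower peaks without either WT transgene library and 15 without either KO transgene library. The Rapgef4 start domain and the Firre peak passed in all 15 alternatives that gave them a value, and 17 other peaks, among them those of Duox1, Shf, Il9r and Cdh3, in 7 to 13 of 14 to 16. Summed by gene, 115 of 18362 regions were lower (0.626%) and 21 higher (0.114%), which became 4 and 0 with DESeq2 or without the line, 9 and 0 with input as an offset, and 0 and 0 among peaks at least 1.5-fold over input. The same model on the 4 input libraries called 0 of 94368 peaks in either direction (0%), with 4724 at an unadjusted p under 0.05, and limma-voom called 1 lower. Over the 61 peaks, the median input change was 0.0052, and input was below 0 at 28.

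The peaks that fell were wide and lay over genes. Their median width was 17.7 kb against 2.36 kb for all peaks, 52.5% covered a gene start window against 7.30%, and 93.4% touched a gene span against 52.4%. Their median log2 ratio over input in the control lines, which took no part in the call, was 0.41 against -0.19. This ratio was 0.48 at the Cdh3 peak and 0.27 at the Rapgef4 start domain. It was 0.22 at the strongest Shf peak, -0.03 at the strongest Duox1 peak and -0.08 at Il9r. Of the 63 peaks past the threshold, 24 entered a fit limited to peaks at least 1.5-fold over input, and 5 of them passed. None of these named peaks reached that ratio in the transgene lines, so they did not enter the fit. Their log2 ratios over input there ran from -0.42 at Duox1 to 0.28 at Cdh3. Deep peaks pass the test at smaller changes, so width and depth partly set which peaks could be called. Of the 61 peaks, 17 lay on chromosome 2, which is 0.224% of its 7580 peaks, against 0.0593% of all tested peaks. Of these 17, 12 were at Rapgef4 or at Duox1 and Shf. Only the X chromosome had a higher share, 0.306%, from Firre and Esx1.

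**Figure D1:**
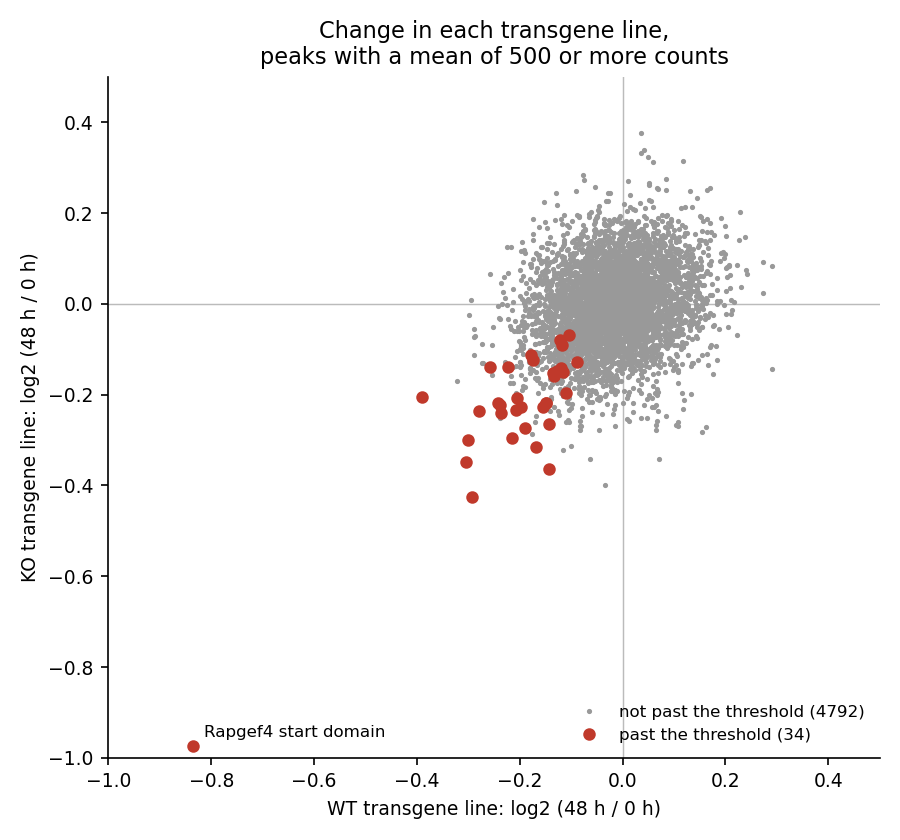
Change in H3K27me3 (log2 of 48 h over 0 h, scaled counts) in the WT transgene line (x axis) against the KO transgene line (y axis), for the 4826 peaks with a mean of 500 or more counts. The 34 peaks past the threshold in red lie in the lower left, and the start domain of Rapgef4 stands apart at -0.84 and -0.97.

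Rapgef4 on chromosome 2 gave the widest and deepest of the strong losses. The gene encodes EPAC2, a guanine nucleotide exchange factor that activates Rap GTPases on binding cyclic AMP. The domain over its start (mm10, chr2:71968482-71992280) had 822 counts at 0 h and 451 at 48 h in the WT transgene line, and 752 and 445 in the KO transgene line. The WT control line had 768 and 770 counts and the line labelled KO control had 610 and 740, so the 2 libraries at 48 h of the transgene lines stood below the other 6. The ratio of scaled counts was 0.560 (0.498 to 0.629) in the WT transgene and 0.509 (0.452 to 0.573) in the KO transgene line, against 0.941 and 1.01 in the control lines. The fitted change was -0.90 ± 0.06 (edgeR, adjusted p = 1.13e-44), against -0.04 ± 0.05 in the control lines and 0.10 ± 0.08 in input. The difference between transgene and control lines was -0.86 ± 0.08 (edgeR, adjusted p = 6.76e-21).

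The loss was not limited to the start. Within the gene span (chr2:71981215-72257474) lay 25 peaks. Of these, 24 were below 0 in the fit, 20 were lower in both transgene lines and 7 fell. The 7 included a narrow peak of 1.43 kb at chr2:72020735-72022167, with 50 and 11 counts in the WT transgene and 52 and 21 in the KO transgene line. At the far end of the gene, chr2:72239064-72256869 went from 522 to 367 counts and from 506 to 456. The fall there, -0.42 ± 0.07, was smaller than at the start. Peaks that did not pass had a median of -0.34, and the 25 peaks together had a median of -0.37 in the transgene and 0.01 in the control lines. Of the 8 peaks outside the span within 100 kb, 0 fell, and their median was 0.05. The nearest of them, a shallow peak 1.08 kb past the end, was at -0.66 ± 0.33. The median change thus stepped from near 0 to below 0 within the bounds of the gene. Summed over its 26 peaks, the region fell by 0.44 on the log2 scale (SE 0.03), with input at 0.12.

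**Figure D2:**
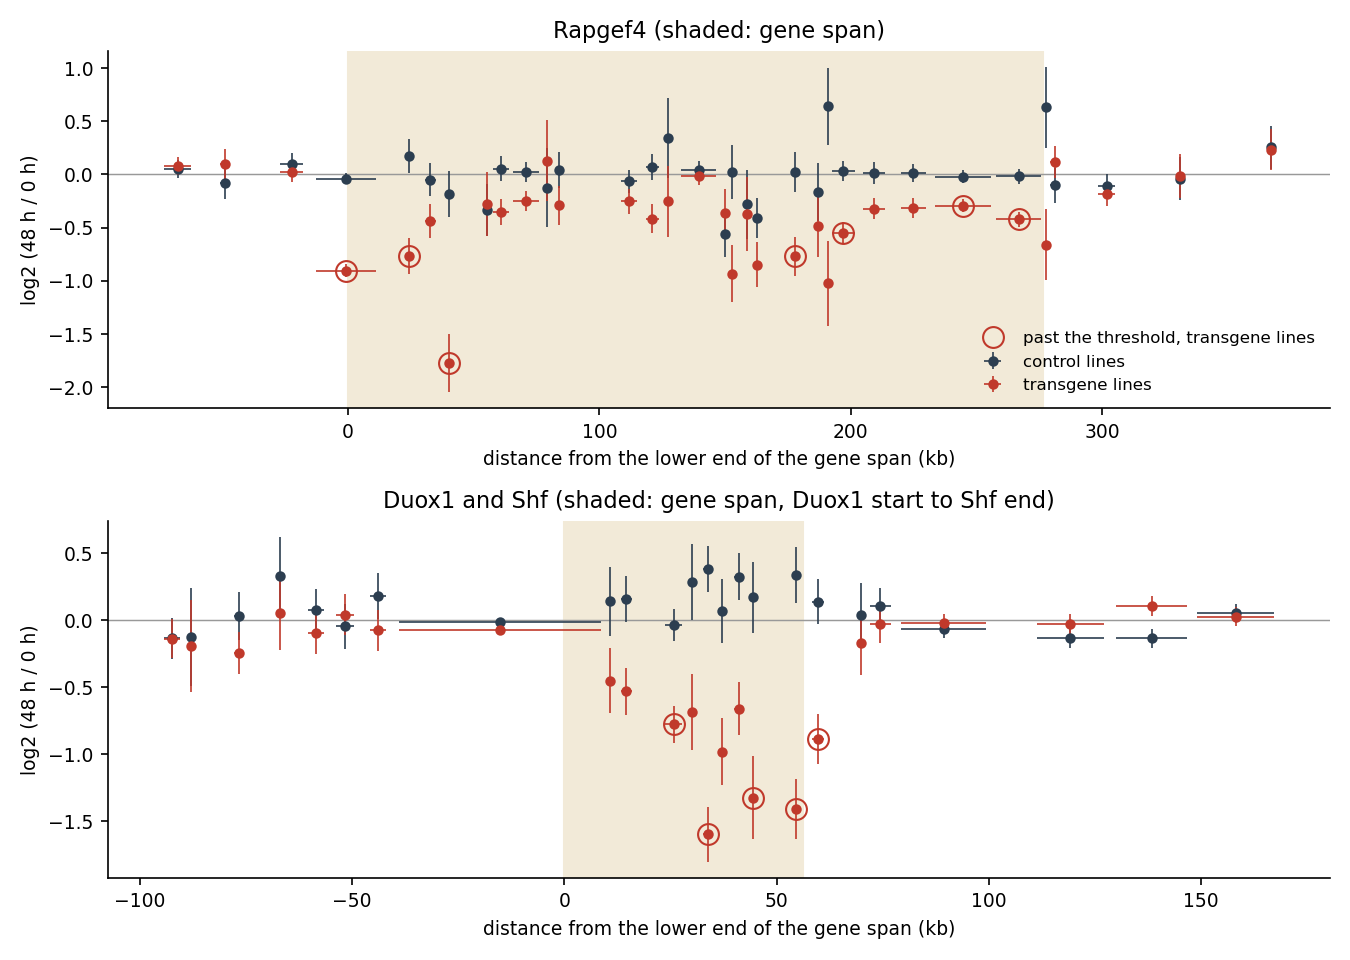
H3K27me3 change (log2 of 48 h over 0 h; bars show SE vertically and peak width horizontally) against distance from the lower end of the Rapgef4 span (top) and of the Duox1 to Shf span (bottom), for transgene lines in red and control lines in dark blue. Circled peaks passed the threshold, and they overlap the shaded gene spans except the 1 just past Shf.

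The start windows of the genes that fell were rich in CpG dinucleotides, the sequence feature that is known to recruit Polycomb complexes. Of 32851 RefSeq start windows (GRCm38.p6, 250 bases before to 50 after a start), 103 windows of 83 genes lay in peaks that fell. They held a median of 13 CG, against 7 in all windows and 7 in the 9427 inside any consensus peak. CG was present in 100% of them and in 94.6% of all windows, so the count and not the presence of the motif differed. Neighbouring windows of 1 gene share sequence, and many windows belong to the Hox clusters, which fell in the control lines as well. Peaks that fell were also deeper, with a median mean count of 598.5 against 57.5 in all tested peaks. Windows were not compared at like depth. The Firre peak and the peaks that fell in Duox1 and Shf held no start window. The 250 bases before the start are shown for 4 single genes named here, 5′ to 3′ on the gene's strand, with each CG in capitals. They include the CpG-dense start of Rapgef4 and the CpG-poor start of Il9r.
Rapgef4 (chr2:71980965-71981214, plus strand): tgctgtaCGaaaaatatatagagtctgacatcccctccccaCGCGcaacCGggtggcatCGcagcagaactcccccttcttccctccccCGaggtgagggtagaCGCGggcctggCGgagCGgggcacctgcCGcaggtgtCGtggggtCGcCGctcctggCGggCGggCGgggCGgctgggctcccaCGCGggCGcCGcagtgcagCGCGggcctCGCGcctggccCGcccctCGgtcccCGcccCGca
Id2 (chr12:25096093-25096342, minus strand): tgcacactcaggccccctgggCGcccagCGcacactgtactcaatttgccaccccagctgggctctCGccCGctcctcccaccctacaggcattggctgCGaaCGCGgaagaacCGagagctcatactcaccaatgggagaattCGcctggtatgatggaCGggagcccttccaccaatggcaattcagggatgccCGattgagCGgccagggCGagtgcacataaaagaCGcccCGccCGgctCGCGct
Esx1 (chrX:137120327-137120576, minus strand): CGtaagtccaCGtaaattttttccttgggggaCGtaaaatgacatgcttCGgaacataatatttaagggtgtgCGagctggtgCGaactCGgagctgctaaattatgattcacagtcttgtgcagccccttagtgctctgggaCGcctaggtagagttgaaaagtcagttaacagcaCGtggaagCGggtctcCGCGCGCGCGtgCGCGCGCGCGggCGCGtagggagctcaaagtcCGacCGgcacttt
Il9r (chr11:32200280-32200529, minus strand): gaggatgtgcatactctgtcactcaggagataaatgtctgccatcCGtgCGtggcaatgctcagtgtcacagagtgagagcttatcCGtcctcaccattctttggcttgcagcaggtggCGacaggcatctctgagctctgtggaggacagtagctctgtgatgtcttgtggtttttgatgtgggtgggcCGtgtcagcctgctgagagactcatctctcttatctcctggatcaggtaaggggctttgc
The stretches hold 30 CG at Rapgef4, 24 at Esx1, 18 at Id2 and 5 at Il9r. A CG count describes the letters only and shows no binding.

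The second cluster of losses lay further along chromosome 2, from Duox1, which encodes a dual oxidase that makes hydrogen peroxide, to Shf, which encodes an SH2 domain adaptor protein. The strongest peak (chr2:122345775-122348081, in Duox1) had 87 and 30 counts in the WT transgene and 81 and 29 in the KO transgene line. Control lines went from 78 to 103 (WT) and from 43 to 73 (labelled KO). Their ratios of scaled counts were 1.24 (0.914 to 1.68) and 1.41 (0.957 to 2.11). Both intervals included 1, and the rise did not pass (edgeR, adjusted p = 0.819). The fitted change was -1.60 ± 0.20 (edgeR, adjusted p = 1.48e-10), against 0.38 ± 0.17 in the control lines, and the difference was -1.98 ± 0.27 (edgeR, adjusted p = 8.17e-09). Input at this peak was lower as well, with 42 and 27 counts and 41 and 26 counts in the same order (-0.69 ± 0.25). The input change minus that in the control lines was -0.77 ± 0.35. Neither input value passed (edgeR, adjusted p = 0.946 and 0.999, in the order given). With input as an offset the peak was at -0.93 ± 0.34 and no longer passed (edgeR, adjusted p = 0.766).

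In Shf, the peak at chr2:122366727-122368440 went from 69 to 26 and from 61 to 26 counts, a fall of 1.41 on the log2 scale (SE 0.22), with input at -0.74 ± 0.29 and an input difference from the control lines of -1.06 ± 0.44. Neither input value passed (edgeR, adjusted p = 0.961 and 0.999). With input as an offset the peak was at -0.69 ± 0.37 and no longer passed (edgeR, adjusted p = 0.94). At 3 other peaks of the cluster that fell, input was not lower, although their calls ended with input as an offset too, at -0.94, -1.47 and -1.15 in the order given. These were chr2:122336742-122340784 in Duox1 (161 to 82 and 129 to 98 counts; -0.78 ± 0.14, input 0.17), chr2:122356970-122357964 in Shf (-1.33 ± 0.31, input 0.21) and chr2:122371478-122374257, 2.33 kb past Shf (85 to 49 and 75 to 43 counts; -0.88 ± 0.19, input 0.28). All 10 peaks of the gene span were below 0 in each transgene line, with a median of -0.73, against 0.17 in the control lines. The broad neighbouring domain over Duox2, Duoxa1 and Duoxa2 and the near end of Duox1 (chr2:122274029-122321609) was at -0.07 ± 0.03 and did not pass. Of the 14 peaks outside the span within 100 kb, the 1 past Shf fell.

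The remaining named falls were single domains with smaller changes. Il9r encodes the interleukin 9 receptor. Its 15.7 kb domain (chr11:32188194-32203886) had 425 and 307 counts in the WT transgene and 476 and 340 in the KO transgene line, while the control lines went from 415 to 465 (WT) and from 449 to 527 (labelled KO). It fell by 0.58 (SE 0.08), and differed from the control lines by -0.59 ± 0.10 (edgeR, adjusted p = 0.000121). Cdh3 encodes P-cadherin, an adhesion protein of epithelia. Its start domain (chr8:106504389-106514850) went from 482 to 364 and from 451 to 372 counts, a fall of 0.43 (SE 0.07), with 0.05 ± 0.07 in the control lines and a difference of -0.48 ± 0.10 (edgeR, adjusted p = 0.0348). With input as an offset Il9r was at -0.72 ± 0.13 and passed, and Cdh3 was at -0.29 ± 0.13 and did not. Both transgene lines were thus lower at 48 h at each gene, while the control-line ratios were 1.05 and 0.978 at Il9r and 1.03 and 1.04 at Cdh3.

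Among transcription regulators, Tfap2c, which encodes an AP-2 factor of trophoblast and germ cells, went from 261 to 174 counts in the WT transgene and from 195 to 146 in the KO transgene line (chr2:172545711-172550286; -0.59 ± 0.11). Id2, which encodes an inhibitor of basic helix-loop-helix factors, went from 238 to 151 and from 242 to 213 (chr12:25091838-25098253; -0.50 ± 0.10). Esx1, an X-linked homeobox gene of placenta and testis, went from 173 to 119 and from 153 to 121 (chrX:137117772-137123877; -0.53 ± 0.12). Control-line changes at these 3 were -0.04, -0.07 and -0.03. Armc2, which encodes an armadillo repeat protein needed for sperm flagella, went from 230 to 186 and from 243 to 187 (chr10:41987256-41996620; -0.44 ± 0.10). The difference from the control lines did not pass at these 4 genes, with -0.55 ± 0.15 at Tfap2c, -0.43 ± 0.15 at Id2, -0.50 ± 0.18 at Esx1 and -0.38 ± 0.14 at Armc2.

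**Figure D3:**
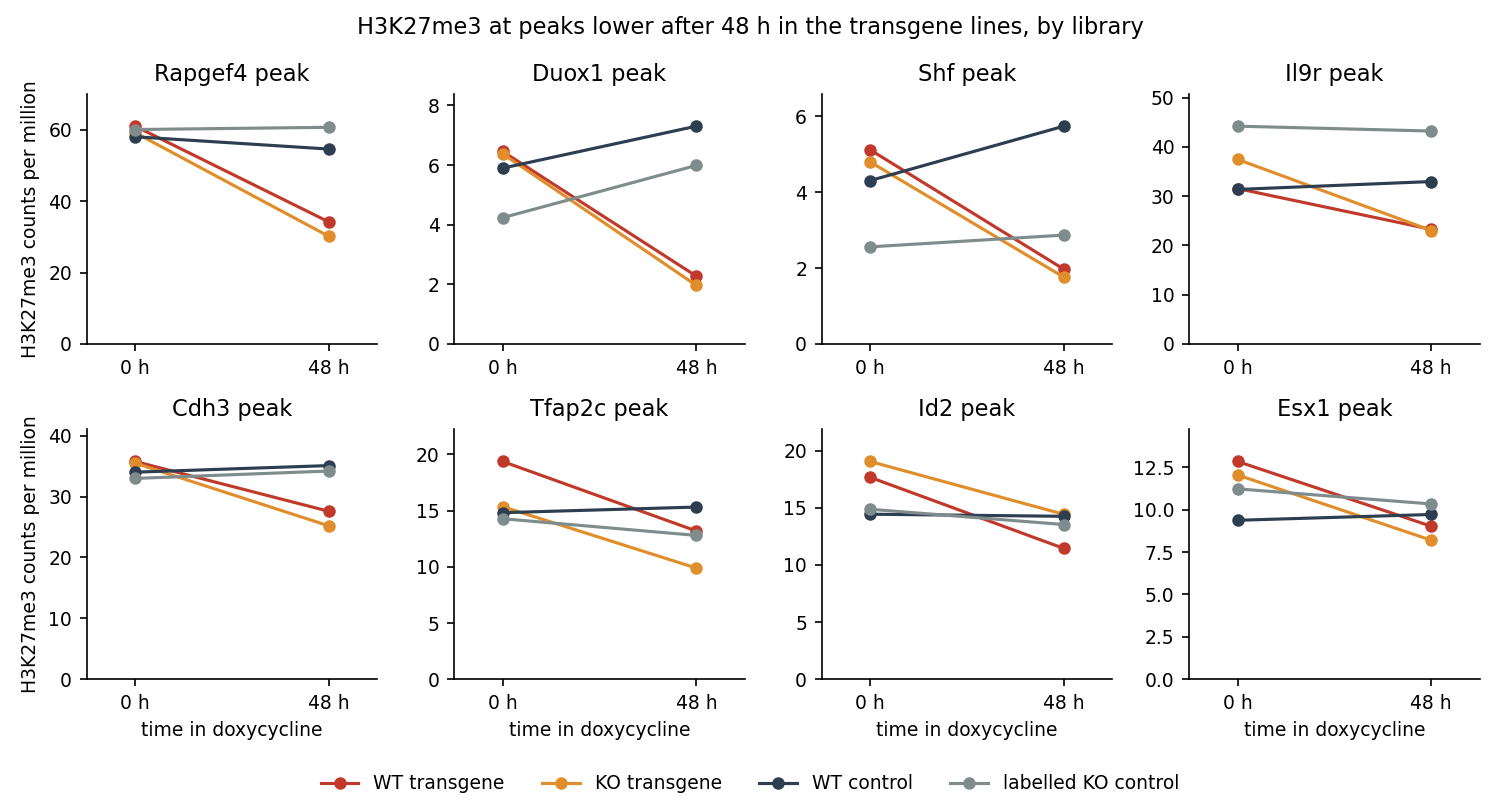
H3K27me3 counts scaled to library size (CPM, y axis from 0) at 0 h and 48 h in each of the 4 lines for 8 named peaks, 1 library per point. The red and orange transgene lines fall in every panel, while the dark and grey control lines change less and rise at Duox1 and Shf. Neither of these rises passed the threshold.

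The Hox clusters, which hold broad H3K27me3 domains, changed by small amounts. HoxD, the cluster that patterns limbs and the posterior axis, went from 9409 to 8437 counts in the WT transgene and from 8947 to 9392 in the deeper KO transgene library. Scaled to library size the ratios were 0.915 (0.889 to 0.943) and 0.903 (0.877 to 0.930), so HoxD was lower in both lines. The clusters changed by -0.13 ± 0.018 at HoxD, -0.10 ± 0.016 at HoxA, -0.087 ± 0.011 at HoxB and -0.069 ± 0.019 at HoxC, and each passed, HoxC at an adjusted p = 0.0395 (edgeR). The control lines gave -0.15, -0.14, -0.11 and -0.082 in the same order, and the difference passed at none, with 0.017 ± 0.023, 0.039 ± 0.022, 0.027 ± 0.011 and 0.014 ± 0.022. Input was at -0.045, -0.011, -0.0083 and -0.044. With an offset per library that follows the ratio over input, the 4 clusters were at -0.058, -0.014, -0.013 and -0.0038, and none passed. DESeq2, a fit without the line and input as an offset ended all 4 calls as well.

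By gene list, few regions passed, and the share over all regions tested was 0.626% lower. With DESeq2 or without the line in the model, Rapgef4 and Firre were the only list regions named here that passed. Of 6 Hox regions 5 were lower, and the list's median was -0.098, beside -0.0016 over all regions. Neuroectoderm regulators had 4 of 28 regions lower (median -0.056), namely Otx1 (-0.20 ± 0.04), Sox1 (-0.15 ± 0.03), Zic1 (-0.14 ± 0.03) and Pax3 (-0.10 ± 0.02), all of which encode factors of early brain or neural crest. Of 24 mesoderm regulators, Tbx18, a T-box factor of the heart and urinary tract mesenchyme, was lower (1164 to 963 and 1167 to 1158 counts; -0.23 ± 0.05). Foxa1 (-0.14 ± 0.03) and Foxa2 (-0.12 ± 0.03), pioneer factors of the endoderm, were lower among 12 endoderm regions. The control lines gave between -0.086 and -0.20 at these 7 genes.

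Other lists held single genes. Of 11 trophoblast marker regions, 3 were lower (against 0.626% of all regions). These were Esx1 (-0.53 ± 0.13), Tfap2c (-0.39 ± 0.08) and Ascl2 (-0.24 ± 0.06; 672 to 558 and 590 to 576 counts). The list's median was -0.085 against -0.034 in the control lines. The difference from the control lines passed at none of the 11, with a median of -0.041. Ascl2, an imprinted basic helix-loop-helix gene, was also the 1 of 22 imprinted regions that was lower. Of 23 regions of cyclic AMP and Rap signalling, Rapgef4 alone passed. The other exchange factors and Rap regulators measured were at small values, such as Rapgef3 (-0.016 ± 0.073), Rapgef5 (-0.043 ± 0.048) and Rap1gap (-0.0073 ± 0.051). Among 7 regions of Firre and its neighbours, Firre passed and all 7 were below 0. The list's median was -0.15 in the transgene and in the control lines alike, and -0.018 in the WT transgene and -0.26 in the KO transgene line. After Firre came Igsf1 at -0.72 ± 0.27 (53 to 27 and 29 to 25 counts; edgeR, adjusted p = 0.241). With 0.626% of all regions lower, lists of this size can hold no call without differing from other genes. None passed of the 19 regions of FGF, MAPK and Wnt feedback targets, 14 germline, 11 fibroblast, 10 mitochondrial stress response, 9 primitive endoderm, 8 primed epiblast, 5 X inactivation, 3 pluripotency, 2 housekeeping, 2 cleavage-stage-like and 1 Firre contact regions. No listed region was higher.

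**Figure D4:**
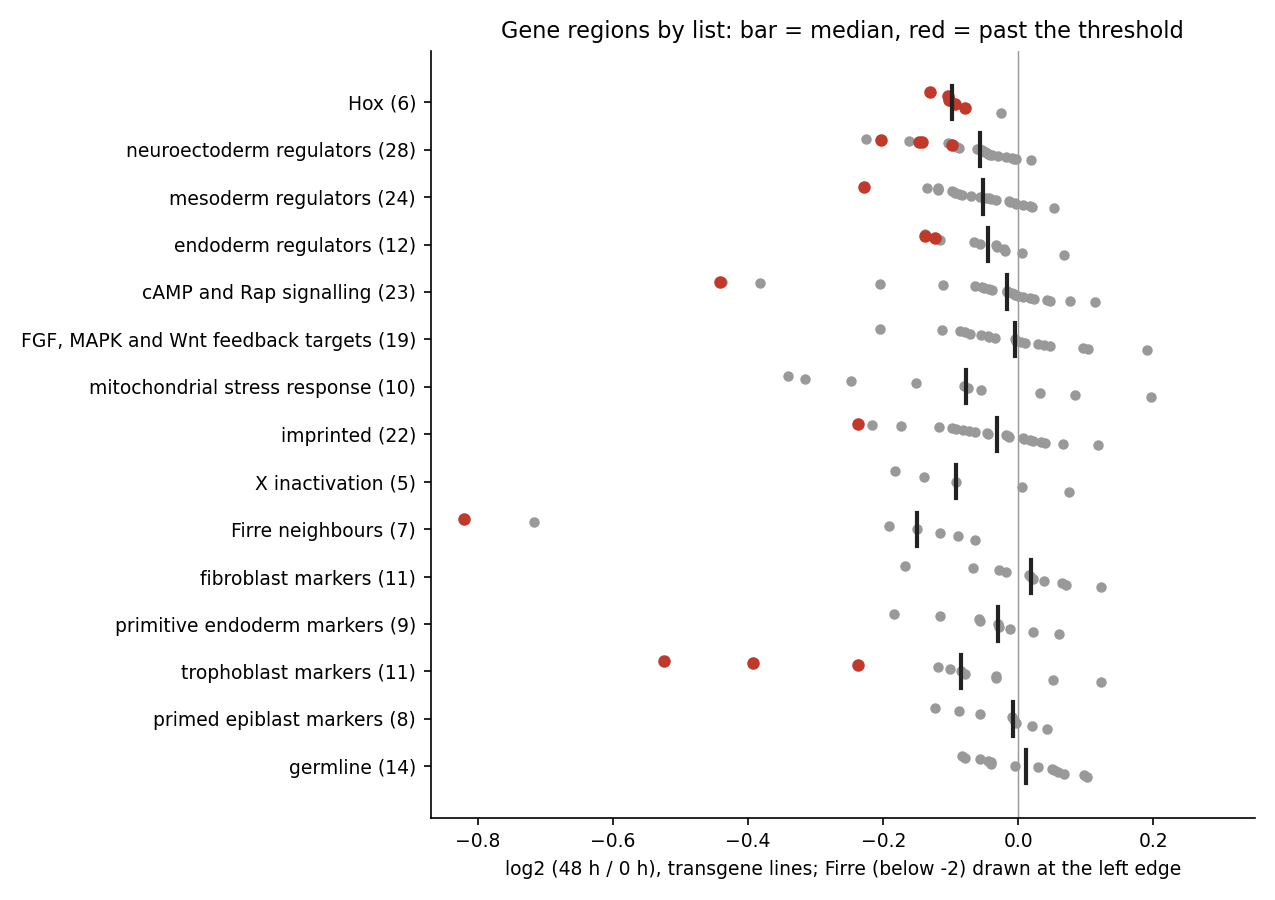
Change in H3K27me3 (x axis, log2 of 48 h over 0 h in the transgene lines) of each gene region by list (y axis, number of regions in brackets), with the median as a bar and regions past the threshold in red. The Hox and regulator lists sit just below 0, and Rapgef4, Esx1 and Tfap2c stand out from their lists; Firre is drawn at the left edge.

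The control lines, measured in the same way, gave 33 lower peaks (0.0321%) and 1 higher (0.000972%). By gene region these were 58 (0.316%) and 5 (0.0272%). Of the peaks lower in the transgene lines, 11 were lower there too, which is 18.0% of the 61 and 33.3% of the 33. The control count was 84 lower with limma-voom and 0 with DESeq2, so these shares hold for edgeR only. A fit over all 8 H3K27me3 libraries tested the difference itself and called 6 peaks lower in the transgene lines (0.00583%) and 0 higher (0%), with 5055 at an unadjusted p under 0.05. DESeq2 called 1 lower and limma-voom 4 higher. The 6 peaks were those above at Rapgef4, Firre, Duox1, Shf, Il9r and Cdh3. The Firre value of -1.97 ± 0.22 rests on the line labelled KO control and turned to 1.07 without it, since WT control had 1 and 0 counts. Leaving out either KO transgene library or either WT control library left 3 lower. By gene region the difference was lower at 8 (0.0436%) and higher at 1 (0.00545%).

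The size of the general fall went with enrichment in all lines. Peaks were ranked by H3K27me3 over input in the control lines. In the top 1030 peaks the median change was -0.058 in the WT transgene and -0.059 in the KO transgene line, -0.064 and -0.070 in the control lines, and -0.033 in the input of the transgene lines. The 51461 peaks of the bottom class had a median of 0.0021. Agreement between the transgene lines went with depth. Across peaks, which are not independent replicates, Pearson's r of the changes in both lines was 0.39 over the 1410 peaks with a mean of 1000 or more counts, against 0.32 in the control lines and -0.04 in input, and 0.02 over the 33691 peaks with 20 to 50 counts. Changes of single shallow peaks were thus mostly not shared between the lines.

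**Figure D5:**
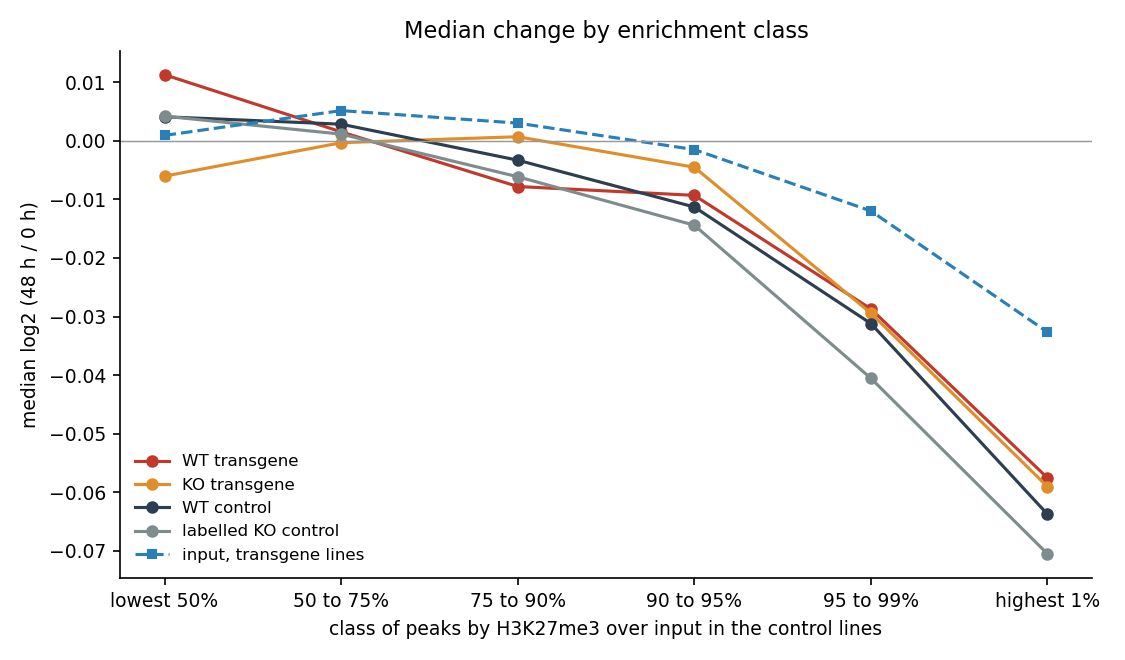
Median change in H3K27me3 (y axis, log2 of 48 h over 0 h) by class of peaks ranked by H3K27me3 over input in the control lines (x axis), for each of the 4 lines and for the transgene-line input. All 4 lines go below 0 together in the highest classes, to between -0.058 and -0.070, and input to -0.033.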

How the data were processed

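H3K27me3 and input ChIP-seq libraries of mouse embryonic stem cells were compared. The authors deposited 1 table of read counts (whole numbers, not normalized) for every consensus peak in every library, and 1 peak list with a score, a fold enrichment and −log10 p- and q-values per peak by the peak caller, per the file headers. The fold is the authors' and describes a peak. Build mm10, DESeq2 1.26.0, featureCounts, MACS2 2.2.71 and BWA 0.7.17-r1188 are listed, without roles, in the submitters' processing notes. The sources used here do not say on which libraries peaks were called. Peak starts are printed as deposited, with a base of 0 or 1 not stated.

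Groups came from the genotype, antibody and time labels. Counts were tested with edgeR 4.0.16 (R 4.3.3; TMM, filterByExpr, quasi-likelihood test, Benjamini-Hochberg at 0.05) in a model of line and time, where the matching by line is the study's own cell line. Replicate numbers are 1 in every group and pair nothing further. The difference between transgene and control lines was fitted over 8 libraries. Genes came from RefSeq (GRCm38.p6), with counts summed over peaks that touch a gene span with 2000 bp on either side. Ratios of scaled counts have 95% exact binomial intervals, which cover only counting error, since reads copied by PCR are not independent. Scripts were tested on simulated data. Alternatives were DESeq2 1.42.0, limma-voom (limma 3.58.1), other scaling, filters, offsets, designs and each library left out.

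Named peaks were the Firre peak, the 12 largest falls and 12 largest rises past the threshold at or above the median depth (57.5 counts) and in the same direction in both lines, Rapgef4, Duox1, Shf, Il9r and Cdh3, list members that passed, and the Hox clusters. No rise met the rule. The members and lists were chosen with earlier results of these data known. The result of 1 gene list is not reported here.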

Additional observations from a re-analysis of the deposited data

Results flagged for a closer look

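At 6 peaks the change from 0 h to 48 h differed between the transgene and the control lines by the test of the difference (edgeR over 8 libraries), and all 6 were lower in the transgene lines. The log2 differences were -1.98 ± 0.27 (SE) at Duox1, -1.97 ± 0.22 at Firre, -1.74 ± 0.31 at Shf, -0.86 ± 0.08 at Rapgef4, -0.59 ± 0.10 at Il9r and -0.48 ± 0.10 at Cdh3. Without the line labelled KO control the Firre difference turned to 1.07. The values of the other peaks without that line are not given here. In input, the difference between transgene and control lines was -0.77 ± 0.35 at Duox1 and -1.06 ± 0.44 at Shf. It was -0.042 at Firre, 0.0095 at Rapgef4, 0.079 at Il9r and -0.044 at Cdh3, and passed at none of the 6.

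The same test by gene region gave -1.98 ± 0.22 at Firre, -1.47 ± 0.14 at Shf, -0.63 ± 0.07 at Gm39845, a lncRNA whose window takes in the Rapgef4 start domain, -0.60 ± 0.10 at Snrnp25, the neighbour of Il9r, -0.51 ± 0.09 at Cdh3, -0.47 ± 0.08 at Il9r, -0.44 ± 0.04 at Rapgef4 and -0.38 ± 0.08 at Gm12916. Rbfox3, which encodes the neuronal splicing factor NeuN, differed in the other direction, by 0.068 ± 0.013.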

How the results depend on the processing

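All 63 peaks past the threshold kept their sign in all alternatives that gave them a value. The Rapgef4 start domain and the Firre peak also passed in each of theirs. The fit at 1.5-fold over input gave a value to 24 of the 63. The 61 lower and 2 higher peaks became 2 and 0 with DESeq2 (Rapgef4 and Firre left), 5 and 0 with no replicate block (line left out of the pairing), 4 and 1 with input as an offset, 5 lower among peaks at least 1.5-fold over input, 34 lower with an offset following the ratio over input, 15 to 23 lower and 0 to 2 higher when a library was left out of the 8-library model, 4 higher with limma-voom or a minimum mean count of 50, and 1 higher without chromosome 11. The 115 lower and 21 higher gene regions became 4 and 0 with DESeq2 and without the block, 9 and 0 with input as an offset, 0 and 0 at 1.5-fold over input, 58 lower with the ratio-following offset, 32 higher with total counts, and 40 to 73 lower (66 without WT transgene at 48 h) and 3 to 26 higher with a library left out. Input peaks gave 1 lower with limma-voom. The control lines gave 0 lower and 0 higher with DESeq2, 84 and 3 with limma-voom, and 2 higher at a minimum of 50.

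The 6 differences became 1 with DESeq2, with 4 higher by limma-voom. After the data were seen, each library and the line labelled KO control were also left out: 3 were lower without either KO transgene or either WT control library, 1 was higher without WT control at 0 h or any of the line labelled KO control, and the Firre difference reversed to 1.05, 1.02 and 1.07 without that line's 0 h, 48 h or both libraries, with a lowest value of -2.01 without KO transgene at 48 h.

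HoxA, HoxB, HoxC and HoxD no longer passed with DESeq2 (-0.10, -0.087, -0.068, -0.13), without the block (-0.10, -0.085, -0.068, -0.13), with input as an offset (-0.087, -0.073, -0.021, -0.081), at 1.5-fold over input (-0.057, -0.042, -0.023, -0.085) and with the ratio-following offset (-0.014, -0.013, -0.0038, -0.058), where the regions of Hoxb9 and Hoxc12 reversed to 0.0079 and 0.00098. HoxC also missed with DESeq2 size factors (-0.067), a minimum of 50 (-0.066), without chromosome 11 (-0.068), and without the WT transgene library at 0 h (-0.043) or 48 h (-0.039). The causes were not tested.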

Other observations

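The share of H3K27me3 counts on the X chromosome was lower at 48 h in both transgene lines. It went from 0.377% to 0.361% in the WT transgene line, a ratio of 0.957 (95% exact interval 0.945 to 0.969), and from 0.362% to 0.345% in the KO transgene line, a ratio of 0.952 (0.940 to 0.964). Without the Firre peak the ratios were 0.961 and 0.955. In the control lines the ratio was 0.963 (0.950 to 0.975) for WT and 0.982 (0.968 to 0.995) for the line with the KO label. Input gave 0.996 (0.972 to 1.02) in the WT transgene and 0.972 (0.949 to 0.997) in the KO transgene line. Of 652 X peaks, 62.9% were below 0 with a median of -0.072, against 50.5% of 102134 autosomal peaks. Only Firre and Esx1 passed there.

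The 2 higher peaks were shallow and were named after their values were seen. The peak near Cnpy1 (chr5:28277828-28279763) went from 28 to 67 counts in the WT transgene and from 29 to 54 in the KO transgene line, and the one near Slc22a21 (chr11:53922869-53924508) from 29 to 53 and from 26 to 63. Among the 21 higher gene regions, also named after their values were seen, were Slc23a2, which encodes a vitamin C transporter (67 to 106 and 69 to 126 counts; 0.68 ± 0.16), P2ry2, a nucleotide receptor gene (0.25 ± 0.06), and Clstn3, which encodes a synaptic adhesion protein (0.27 ± 0.07, with 0.20 in the control lines).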
